A study of Mus musculus with 6 samples.

Results

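Platelet-derived growth factors (PDGFs) and their receptors are described here across 6 RNA sequencing libraries of cultured mouse lung fibroblasts. The group was defined by gene symbol and holds 7 of the 24061 genes in the count table: the ligand genes Pdgfa, Pdgfb, Pdgfc and Pdgfd, the receptor genes Pdgfra and Pdgfrb, and the receptor-like gene Pdgfrl. All 6 libraries came from resident fibroblasts of fibrotic lungs of TGF-alpha transgenic mice, so that the controls carry the transgene too. Control libraries 1 to 3 received a stealth control siRNA (a short RNA duplex that directs the breakdown of a matching transcript), and libraries 4 to 6 a stealth siRNA that targets Wt1, the gene of the zinc finger transcription factor of Wilms tumor. The sources used here do not give the promoter of the transgene, the age of the mice, the time after transfection or the duplex sequences. Nor do they say if the 3 libraries in each group are separate cultures or animals, and the p-values therefore reflect library-to-library spread alone, which may be technical.

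PDGFs are disulfide-linked dimers that act on 2 receptor tyrosine kinases. The alpha receptor binds dimers of the A, B and C chains, and the beta receptor binds those of the B and D chains. The A and B chains are processed inside the cell by furin-type convertases, whereas the C and D chains are secreted as latent proteins whose CUB domains are removed outside the cell by proteases such as the plasminogen activators. In the lung, PDGF-A from the epithelium acts on mesenchymal cells bearing the alpha receptor and is needed for the formation of alveolar septa, and PDGFs are mitogens for fibroblasts. WT1 has long been studied as a regulator of the human PDGFA promoter, where it was reported to bind both sites of the EGR1 type and repeats of the triplet TCC.

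Pdgfa, Pdgfc, Pdgfd and Pdgfra were the only members with a RefSeq promoter entry, and they were also the members that changed. No unchanged member could thus be searched for comparison. The starts of the 4 genes are shown. They were taken from RefSeq promoters of GRCm38.p6 for these 4 genes (Pdgfb, Pdgfrb and Pdgfrl had no entry), and 250 bases before each start were searched on both strands for GCGTGGGCG, GCGGGGGCG and GCGTGGGNG (types bound by EGR1 and WT1), for TCCTCCTCC and for GGGCGG, the GC box. The first and the third of these overlap. The only 9-base motif found was TCCTCCTCC, in 1 of the 2 Pdgfa promoters. It lay in a run of 5 TCC triplets, 26 to 12 bases before the RefSeq start and inside a Pdgfa exon of GENCODE, of which a 30-base site is printed, minus strand, with the run in capitals. TCCTCCTCC was held by 2.45% of the 32851 mouse promoter windows of the same length, and a run of at least 5 triplets by 0.253%. That run length was taken from the Pdgfa window itself, after 5 member windows had been searched, so that 0.253% is descriptive only.
Pdgfa, chr5:138994948-138994977, minus strand: actctgtTCCTCCTCCTCCTCCtcgctggc
Pdgfc, chr3:81036166-81036415, plus strand: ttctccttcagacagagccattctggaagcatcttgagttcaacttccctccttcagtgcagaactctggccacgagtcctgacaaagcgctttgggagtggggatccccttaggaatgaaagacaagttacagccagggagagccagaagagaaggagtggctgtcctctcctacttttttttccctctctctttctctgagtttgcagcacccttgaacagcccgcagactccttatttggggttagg
Pdgfd, chr9:6168236-6168485, plus strand: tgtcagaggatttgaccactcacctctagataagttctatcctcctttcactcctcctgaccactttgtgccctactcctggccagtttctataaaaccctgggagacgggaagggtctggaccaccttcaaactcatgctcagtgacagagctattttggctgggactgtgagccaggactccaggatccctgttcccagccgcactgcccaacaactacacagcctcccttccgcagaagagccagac
Pdgfra, chr5:75152001-75152250, plus strand: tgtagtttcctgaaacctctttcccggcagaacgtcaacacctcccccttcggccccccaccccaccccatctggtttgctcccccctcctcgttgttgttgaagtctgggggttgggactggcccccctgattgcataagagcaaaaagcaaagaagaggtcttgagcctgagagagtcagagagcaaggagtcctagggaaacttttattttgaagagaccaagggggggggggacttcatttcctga

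The windows of Pdgfc, Pdgfd and Pdgfra held none of the 5 motifs and are printed without capitals. The Pdgfra window lies inside the annotated span of its gene, which begins at 75151322. Both Pdgfa windows also lie inside the span of that gene (138976014 to 139000792), and the Pdgfd window crosses the first base of its span, 6168363. The sequence just outside the spans of Pdgfra and Pdgfa was not searched. GGGCGG was present in both Pdgfa windows and in 32.7% of all windows. G and C made up 72.4% of the Pdgfa window with the TCC run, against 50.8%, 53.6% and 54.4% in Pdgfc, Pdgfd and Pdgfra. A match of letters describes the window only, and binding was not measured in these samples.

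Column totals were 26.1 to 32.1 (in units of 1e6 counts), so that the floor of 3 counts was worth 0.0935 to 0.115 counts per 1e6 counts of the library (CPM). The siRNA target was checked first. Wt1 stood at 48.8, 55.7 and 51.5 CPM in control libraries 1 to 3 and at 11.4, 8.63 and 7.92 CPM in libraries 4 to 6, which was 5.59-fold lower (edgeR adjusted p = 5.98e-06). Of 14190 genes tested, 19.3% were called (adjusted p below 0.05 by the quasi-likelihood test of edgeR with Benjamini-Hochberg adjustment), 9.05% as higher and 10.3% as lower after Wt1 siRNA. The calls comprised 1284 higher and 1459 lower genes, a split that became 855 and 1829 when libraries were scaled only by their totals.

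All 7 PDGF genes passed the filter on low counts, with 224 to 39792 reads in a library. After Wt1 siRNA, 3 members were higher, all of them ligands, and 1 was lower, the alpha receptor. The other 3 members did not pass. Calls covered 57.1% of the members and 19.3% of all genes tested. The groups of libraries did not overlap for the same 4 members, against 36.4% of all genes tested. The median log2 fold change was 0.06 over the 7 members and 0.0035 over all genes tested.

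**Figure D1:**
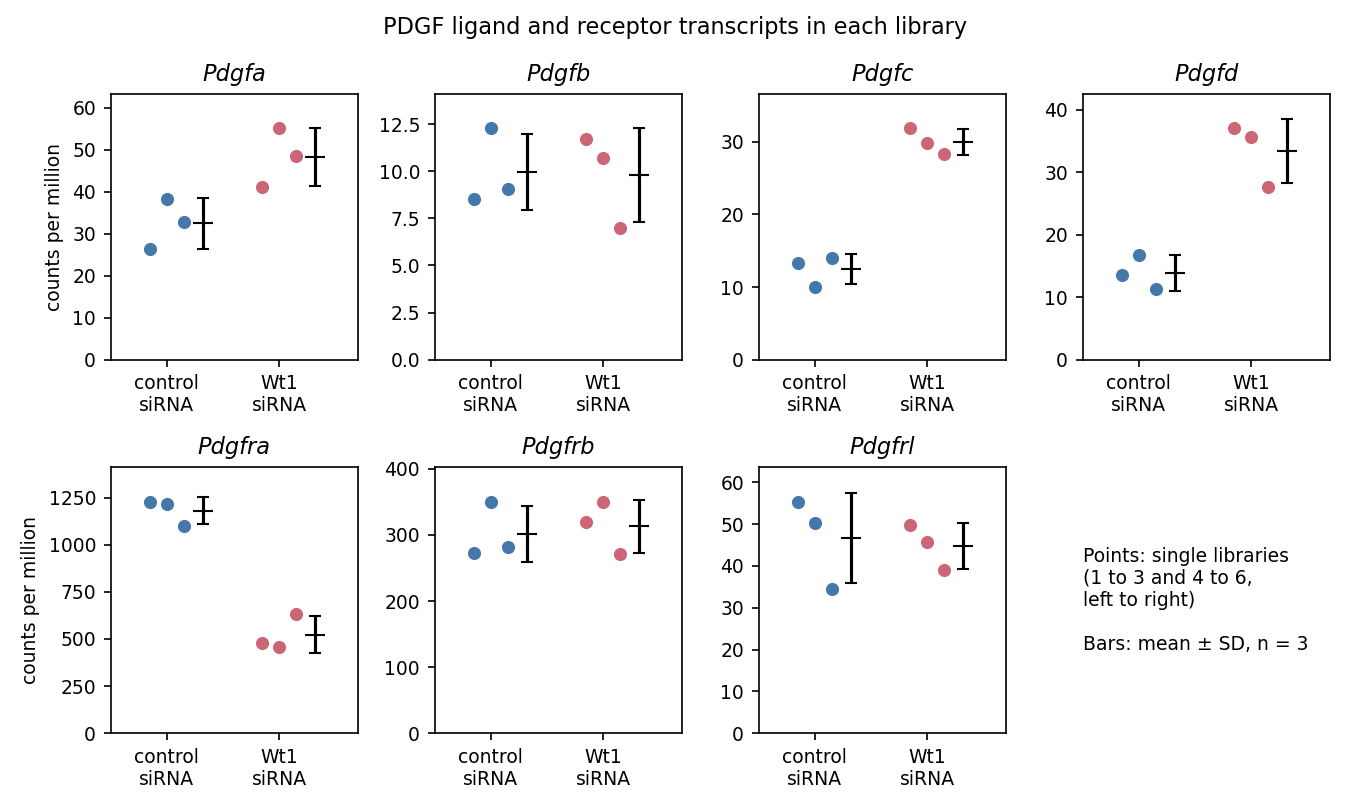
Counts per 1e6 counts (vertical axes, from 0) of each member in control siRNA libraries 1 to 3 (blue) and Wt1 siRNA libraries 4 to 6 (red), with the mean and SD (n = 3) beside them. The red points lie above all blue points for Pdgfa, Pdgfc and Pdgfd and below all of them for Pdgfra, whereas the groups overlap for Pdgfb, Pdgfrb and Pdgfrl.

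Pdgfc and Pdgfd, the genes of the latent ligands with CUB domains, rose most among the members and by nearly the same factor. Pdgfc (gene ID 54635, GRCm38 chromosome 3, 81036416 to 81214040) encodes a ligand of the alpha receptor. It had 13.3, 10.1 and 13.9 CPM in the controls and 31.9, 29.9 and 28.3 CPM after Wt1 siRNA. Every library with Wt1 siRNA lay at least 14 CPM above every control, and the spread within each group was small beside that gap. The means of 12.4 ± 2.09 and 30.01 ± 1.81 CPM (SD, n = 3) were 2.41-fold apart, with a log2 fold change of 1.27 and an SE of 0.16 (edgeR adjusted p = 2.73e-04). Of all genes tested, 98.1% had a lower log2 fold change.

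Pdgfd (gene ID 71785, chromosome 9, 6168363 to 6534284) encodes a ligand of the beta receptor. Its levels were 13.6, 16.8 and 11.2 CPM in the controls and 37.0, 35.6 and 27.6 CPM after Wt1 siRNA. Library 6 was the lowest of its group and still stood above the highest control. Mean CPM was 13.9 ± 2.81 in controls against 33.4 ± 5.06 after Wt1 siRNA (SD, n = 3), and the edgeR estimate on the log2 scale was 1.27 ± 0.18 (SE; adjusted p = 5.63e-04). The gene Ddi1 lies within the span of Pdgfd and had 0 counts in every library.

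Pdgfa (gene ID 18590, chromosome 5, 138976014 to 139000792) encodes the A chain, a ligand of the alpha receptor, and rose less. It had 26.3, 38.4 and 32.8 CPM in the controls and 41.1, 55.1 and 48.6 CPM after Wt1 siRNA. The highest control, library 2, came close to the lowest library with Wt1 siRNA, library 4. The means of 32.5 ± 6.04 and 48.3 ± 6.99 CPM (SD, n = 3) were 1.49-fold apart, with a log2 fold change of 0.57 and an SE of 0.16 (edgeR adjusted p = 0.0255). Leaving out library 1 ended the call at a log2 fold change of 0.44 (edgeR adjusted p = 0.0891), as did leaving out library 3 at 0.58 (edgeR adjusted p = 0.0736). The same held for library 5 at 0.47 (edgeR adjusted p = 0.0993) and library 6 at 0.57 (edgeR adjusted p = 0.0560).

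Pdgfb (gene ID 18591, chromosome 15, 79995865 to 80024614) encodes the B chain, which binds both receptors, and did not pass. Its levels were 8.55, 12.3 and 9.06 CPM in the controls and 11.7, 10.7 and 7.01 CPM after Wt1 siRNA. Both the highest and the lowest of the 6 values were thus split between the groups, with a control at the top and a Wt1 siRNA library at the bottom. The log2 fold change was -0.02, with a 95% interval of -0.53 to 0.49 (edgeR adjusted p = 0.962), and changes inside that interval cannot be told from none.

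**Figure D2:**
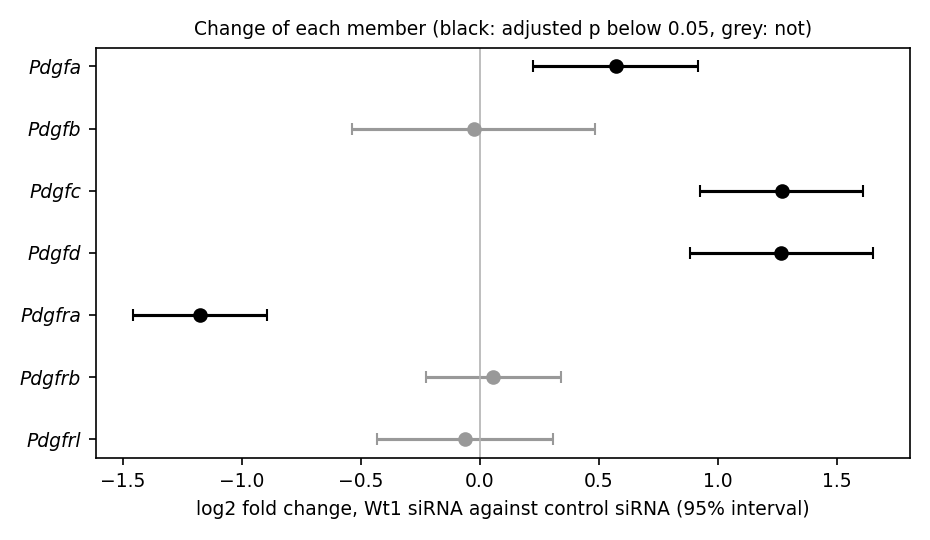
Log2 fold change of each member after Wt1 siRNA against control siRNA (horizontal axis, edgeR), with its 95% interval from 3 libraries a group; black marks an adjusted p below 0.05. Pdgfc and Pdgfd sit together at 1.27, Pdgfa at 0.57 and Pdgfra at -1.17, while the intervals of the other 3 members include 0.

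The makeup of the ligand pool was described by shares and ratios, none of which passed an adjusted p of 0.05, a level that 3 against 3 libraries cannot reach. Levels are compared between genes only per length, as CPM per kb of annotated exons. The 4 ligands summed to 17.4, 22.6 and 19.0 CPM per kb in the controls and to 34.0, 37.4 and 31.6 after Wt1 siRNA, with means 1.75-fold apart and no overlap. The exact two-sided permutation p was 0.1, the smallest that 3 against 3 libraries allow (0.133 adjusted over the 12 ratios, shares and sums computed).

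Pdgfc and Pdgfd together stood at 6.84 ± 0.51 CPM per kb in controls and 16.5 ± 1.93 after Wt1 siRNA (SD, n = 3), while Pdgfa and Pdgfb together stood at 12.8 ± 2.38 and 17.8 ± 2.17. Pdgfa was the most abundant ligand per length in every library, with 48.4% to 55.4% of the sum in controls and 38.8% to 49.3% after Wt1 siRNA, ranges that overlap. The share of Pdgfd went from 22.4% ± 3.17 to 30.8% ± 3.44, that of Pdgfc from 12.7% ± 3.46 to 17.2% ± 1.38, and that of Pdgfb from 12.1% ± 0.86 to 6.83% ± 1.47 (SD, n = 3). For each of these 3 shares the groups did not overlap and the exact permutation p was 0.1. The ratio of Pdgfc to Pdgfd was 0.56 in both groups (geometric means, exact p = 1), whereas that of Pdgfa to Pdgfc was 4.25 in controls and 2.61 after Wt1 siRNA (exact p = 0.1). These levels depend on the gene length used. With the mean transcript length, the share of Pdgfd was 11.8% in controls and 17.6% after Wt1 siRNA, that of Pdgfa 64.5% and 59.7%, and the ratio of Pdgfa to Pdgfc 6.96 and 4.27. Single libraries also mattered: without library 2 the difference in the Pdgfc share was 2.50 in place of 4.49 percentage points, and that in log2 Pdgfa to Pdgfc was -0.43 in place of -0.70. Without library 4 the difference in the Pdgfa share was -4.49 in place of -7.66 percentage points.

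**Figure D3:**
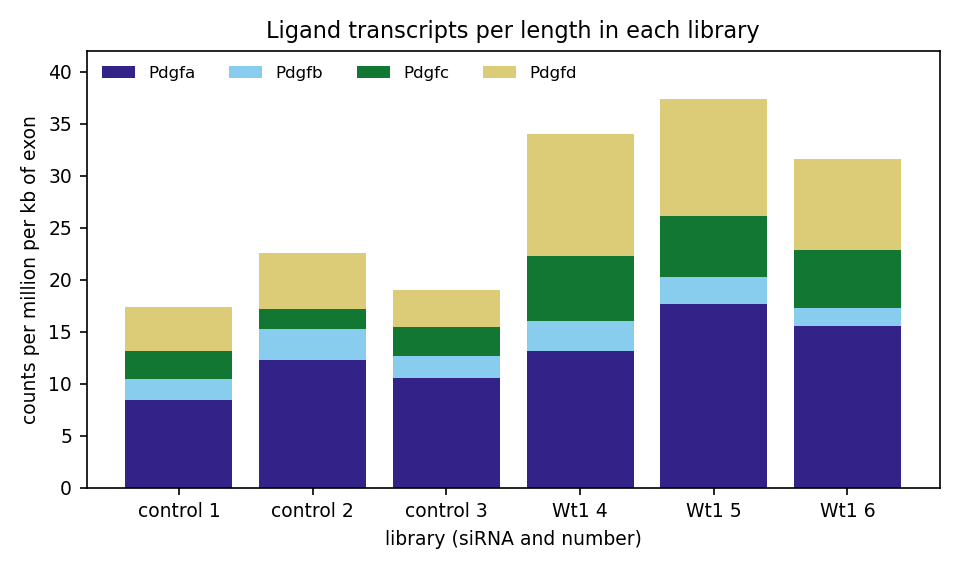
Stacked levels of the 4 ligand transcripts in CPM per kb of exon (vertical axis, from 0) in each of the 6 libraries. The stacks reach 17.4 to 22.6 in controls and 31.6 to 37.4 after Wt1 siRNA, and the Pdgfb segment is about as tall in both groups.

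Of the receptor genes, Pdgfra alone passed the test. Pdgfra (gene ID 18595, chromosome 5, 75151322 to 75198206) encodes the alpha receptor, which marks fibroblasts in the lung. It was the most abundant member, above 99.2% of all genes tested in mean CPM, with 1228, 1215 and 1099 CPM in the controls and 480, 456 and 634 CPM after Wt1 siRNA. The controls lay within a narrow band, and library 6, the highest of its group, was still far below them. The means of 1181 ± 70.9 and 523 ± 96.4 CPM (SD, n = 3) differed 2.26-fold, or by -1.17 ± 0.13 (SE) in log2 units (edgeR adjusted p = 1.48e-04). Only 3.90% of genes tested had a lower log2 fold change.

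The annotated microRNA gene Mir7025 (chromosome 5, 75176831 to 75176904) begins inside a Pdgfra exon, with which it shares 30 of its 74 bases. Its row held 223, 206 and 150 counts in the controls and 54, 92 and 136 after Wt1 siRNA (log2 fold change -1.04 ± 0.30, edgeR adjusted p = 0.0296, lost when any library but number 6 was left out, at up to 0.113). Reads of the Pdgfra transcript and of Mir7025 cannot be told apart in the shared bases, and the counting rule is not given. This row can therefore not be taken as a measure of the microRNA.

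Pdgfrb (gene ID 18596, chromosome 18, 61045127 to 61085067) encodes the beta receptor, known from pericytes and activated fibroblasts, and did not pass. Its levels were 272, 350 and 282 CPM in the controls and 319, 350 and 271 CPM after Wt1 siRNA, with the ranges of the groups almost the same. The log2 fold change was 0.06, with a 95% interval of -0.23 to 0.34 (edgeR adjusted p = 0.815). Its sign turned to -0.03 with library size scaling.

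Pdgfrl (gene ID 68797, chromosome 8, 40926233 to 40990782) encodes a receptor-like protein without a kinase domain. It had 55.4, 50.2 and 34.6 CPM in the controls and 49.7, 45.7 and 38.9 CPM after Wt1 siRNA. The controls spanned more than the whole range of the other group, and the log2 fold change of -0.06 (95% interval -0.43 to 0.31, edgeR adjusted p = 0.848) did not pass.

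The ratio of Pdgfra to Pdgfrb within a library depends on no scaling between libraries. Per length it was 2.46, 1.90 and 2.13 in the controls and 0.822, 0.711 and 1.28 after Wt1 siRNA. All 3 ratios after Wt1 siRNA were below all controls, a mean log2 difference of -1.25 (exact permutation p = 0.1, the smallest possible). The difference is the same whatever length is used, but which receptor has more transcripts is not. With the longest annotated transcript of each gene, a length chosen after the data were seen, the mean ratio was 3.13 in controls and 1.32 after Wt1 siRNA, and with the mean transcript length 7.77 and 3.27. With the exon union the mean levels were 118 ± 7.07 and 52.2 ± 9.62 CPM per kb for Pdgfra and 55.0 ± 7.73 and 57.2 ± 7.32 for Pdgfrb (SD, n = 3).

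**Figure D4:**
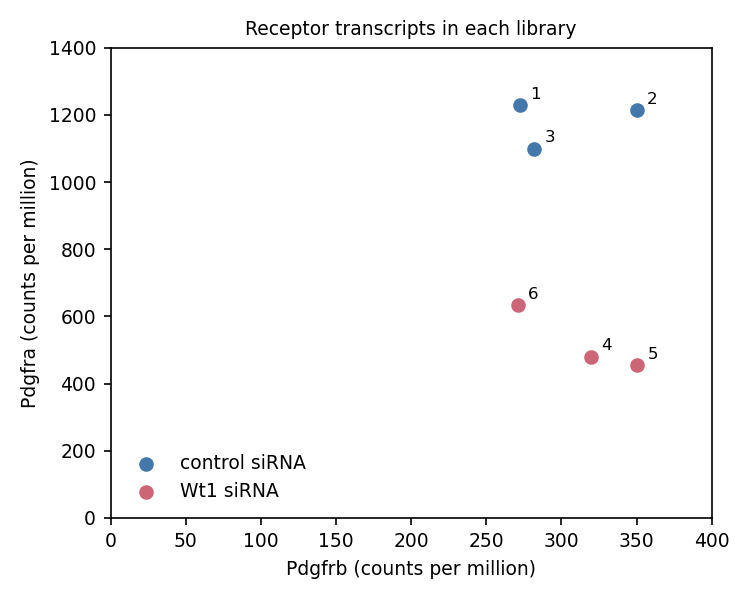
Pdgfra against Pdgfrb in counts per 1e6 counts for each library, labelled with its number. The control libraries (blue) lie between 1099 and 1228 and the Wt1 siRNA libraries (red) between 456 and 634 on the vertical axis, while both groups cover 271 to 350 on the horizontal axis.

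With the exon union as length, on which the order of the lower members depends, the order in controls was Pdgfra, Pdgfrb, Pdgfrl, Pdgfa, Pdgfd, Pdgfc and Pdgfb. Pdgfrl at 14.9 ± 3.46 and Pdgfa at 10.4 ± 1.94 CPM per kb (SD, n = 3) differed by little more than their spread, and Pdgfc at 2.45 ± 0.41 and Pdgfb at 2.39 ± 0.49 did not differ beyond it. After Wt1 siRNA, Pdgfa at 15.5 ± 2.24 and Pdgfrl at 14.3 ± 1.75 were within their spread of each other, as were Pdgfrb and Pdgfra. Pdgfd at 10.6 ± 1.60 stood above Pdgfc at 5.90 ± 0.36, and Pdgfb at 2.36 ± 0.59 was lowest.

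In bulk RNA, fewer cells of a type and less RNA per cell cannot be told apart. As background for the marker counts, 9.05% of all genes tested were higher and 10.3% lower. An unadjusted p below 0.05 was reached by 4551 of the 14190 genes. Of the 8 fibroblast markers, which include Pdgfra, 5 were higher (Col1a1, Col1a2, Col14a1, Dcn and Lum) and Pdgfra was lower by the edgeR test. The other 2, Tcf21 and Col13a1, did not pass (adjusted p = 0.0715 and 0.0716), with log2 fold changes of -0.54 and -2.77 and no overlap between groups, so that 3 markers were lower when p was not adjusted. Tcf21 had 16.6 ± 3.37 and 11.4 ± 1.83 CPM and Col13a1 1.31 ± 0.79 and 0.181 ± 0.25 CPM (SD, n = 3). The summed level of that list was 12881 to 19862 CPM in controls and 25051 to 32242 CPM after Wt1 siRNA, and most of it was Col1a1 (means of 7982 and 17421 CPM) and Col1a2 (5793 and 9655 CPM). None of the 9 tested pericyte and smooth muscle markers passed the test (edgeR: 0 in either direction, and 1 higher with 2 lower when p was not adjusted), and their sum was 358 to 433 CPM in controls and 319 to 389 CPM after Wt1 siRNA. Levels differed widely within that list. Rgs5, a defining pericyte gene, had 1.03 and 0.962 CPM, whereas Des had 187 and 147 CPM, Cnn1 80.6 and 93.6 CPM and Notch3 16.6 and 15.9 CPM. Of the 5 mesothelial markers, 3 were lower (Lrrn4, Upk3b and Wt1) and 2 higher (Krt19 and Msln), with sums of 172 to 207 and 99.9 to 126 CPM. Wt1 is the target of the siRNA, so that its fall was set by the design and says nothing about mesothelial cells. Its means of 52.0 and 9.31 CPM are part of these sums. Macrophage markers summed to 22.1 to 30.5 CPM in controls and 25.1 to 30.6 CPM after Wt1 siRNA. In edgeR 0 of 5 tested passed (also 0 at an unadjusted p below 0.05). Most of that sum was Lyz2 (means of 19.7 and 21.7 CPM), and Adgre1 had no counts in controls and 0, 10 and 5 after Wt1 siRNA. Endothelial markers summed to 98.6 to 122 and 80.3 to 99.4 CPM with 1 of 6 lower (Kdr), and 1 higher with 2 lower when p was not adjusted. The log2 fold change was negative for 5 of the 6. Epithelial markers summed to 47.0 to 63.7 and 40.3 to 46.6 CPM with 1 of 5 lower (Krt18), and 2 lower when p was not adjusted. All 5 had a negative log2 fold change, with a median of -0.59, among them Cdh1 at -0.70 (edgeR adjusted p = 0.0643). In that list Scgb1a1 was at 0, whereas Krt18 had means of 20.7 and 13.7 CPM and Krt8 of 19.9 and 19.6 CPM. Of 5 platelet genes, Gp9 was at 0 and 1 of 2 tested, Gp1bb, was higher. The part of these shifts in the changes of the PDGF genes was not tested.

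Around the PDGF pathway, 6 lists with 75 genes were examined, of which 74 were tested. In these lists 13 genes were higher (17.6%) and 10 lower (13.5%), against 9.05% and 10.3% of all genes, with a median log2 fold change of 0.10. Without Wt1 siRNA library 4 the number of higher genes in the lists was 8, while that over all genes went from 1284 to 578.

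Proteases that process the ligands went both ways. Of 7 genes, with a median of 0.32, 2 were higher and 2 lower by the edgeR test, against 9.05% and 10.3% of all genes tested. Furin, the convertase of the A and B chains, rose from 87.4 ± 8.89 to 140.0 ± 3.48 CPM (SD, n = 3; log2 fold change 0.68 ± 0.11 (SE), adjusted p = 0.00123). Pcsk5, a related convertase, fell from 54.3 ± 4.44 to 17.3 ± 3.11 CPM (-1.65 ± 0.15, adjusted p = 4.88e-05), and Pcsk6 fell by 0.62 (log2; adjusted p = 0.0396). The call of Pcsk6 was lost without control library 1, 2 or 3 or Wt1 siRNA library 4 or 6, at adjusted p of up to 0.145, which left 1 lower gene.

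Plau, the urokinase plasminogen activator that cleaves latent PDGF-D, had 38.8, 34.1 and 61.9 CPM in the controls and 92.4, 77.6 and 195 CPM after Wt1 siRNA. Library 6 stood far above the rest of its group. The log2 fold change was 1.44 ± 0.31 (SE, edgeR adjusted p = 0.00706) and 0.92 without that library. Plat, the tissue plasminogen activator that cleaves latent PDGF-C, had 42.2 ± 1.62 and 46.4 ± 4.42 CPM (SD, n = 3; log2 fold change 0.14, adjusted p = 0.472) and did not pass; it is outside the naming rule and was chosen after its values were seen.

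Among 7 coreceptors and PDGF-binding proteins, 1 was higher and 1 lower (median 0.24), against 9.05% and 10.3% of all genes tested. Thbs1, thrombospondin 1, a matrix protein that binds PDGF, rose from 15744 ± 2245 to 26199 ± 3456 CPM (SD, n = 3; log2 fold change 0.73 ± 0.13 (SE), edgeR adjusted p = 0.00187). A2m, the protease inhibitor alpha-2-macroglobulin, a carrier of PDGF, fell by 1.62 ± 0.31 in log2 units (adjusted p = 0.00378). The count of higher genes became 3 on leaving out library 2 and 2 on leaving out library 3.

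Signal transducers next to the receptors were split. The edgeR test called 6 of 27 higher and 4 lower, leaving 17 uncalled, with a median log2 fold change of 0.10. Over all genes tested, 9.05% were higher and 10.3% lower. Pik3cb and Pik3r1 encode a catalytic and a regulatory subunit of phosphatidylinositol 3-kinase. Pik3cb rose from 23.5 ± 1.21 to 49.1 ± 3.97 CPM (SD, n = 3; log2 fold change 1.06 ± 0.12 (SE), adjusted p = 1.78e-04), whereas Pik3r1 fell from 165 ± 12.4 to 91.6 ± 5.02 CPM (-0.85 ± 0.11, adjusted p = 2.74e-04). The Src family kinase gene Fyn rose by 0.94 ± 0.12 and the Ras exchange factor gene Sos2 by 0.60 ± 0.14. The signal transducer gene Stat3 fell by 0.76 ± 0.10 and the GTPase gene Nras by 0.87 ± 0.13 on the log2 scale. Only 2 genes were higher when library 4 was left out, and 3 when library 5 was. Over all genes the higher calls went from 1284 to 578 and 836 in these fits. Sos2 lost its call without library 3 (adjusted p = 0.0528) or library 4 (adjusted p = 0.0624).

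Of 11 genes that attenuate receptor signals, 1 was higher and 1 lower (edgeR), with a median of 0.15. That share of calls was near the 19.3% of all genes tested. At an unadjusted p below 0.05, 4 were higher and 2 lower, against 4551 of all 14190 genes in either direction. Socs3, a suppressor of cytokine signalling, fell from 97.4 ± 12.4 to 43.9 ± 3.74 CPM (SD, n = 3; -1.15 ± 0.13 (SE), adjusted p = 1.48e-04). Cblb, a ubiquitin ligase of the Cbl family, rose by 0.40 ± 0.12 (adjusted p = 0.0356), a call that ended under scaling by totals or on leaving out library 2, 3, 4 or 5, at adjusted p of up to 0.159 and with 0 genes higher. Without Wt1 siRNA library 6, 2 genes were lower.

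Of 16 early genes that PDGF induces in resting fibroblasts, 2 were higher, 1 was lower and 13 were not called (edgeR), with a median of -0.0082. That share of calls was near the 19.3% of all genes tested. At an unadjusted p below 0.05, 3 were higher and 3 lower. The lower ones included Egr2 (log2 fold change -0.87, edgeR adjusted p = 0.0644) and Jun (-0.26, edgeR adjusted p = 0.139), both without overlap between groups. Egr1, the zinc finger gene whose product binds the same kind of sites as WT1, had 14.7 ± 1.42 and 15.8 ± 2.61 CPM (SD, n = 3; adjusted p = 0.726), and Fos 13.7 ± 2.18 and 11.3 ± 0.45 CPM (adjusted p = 0.309); both were chosen after their values were seen. Odc1, the ornithine decarboxylase of polyamine synthesis, rose by 0.93 ± 0.13 (adjusted p = 6.46e-04) and Ier2, an immediate early gene, by 0.50 ± 0.13 (adjusted p = 0.0160). The call of Ier2 was lost without control library 1 or Wt1 siRNA library 6 (adjusted p = 0.0566 and 0.0600), which left 1 higher gene. The chemokine gene Cxcl1 was near the floor, with 11, 12 and 17 counts in the controls and 0, 0 and 2 after Wt1 siRNA. Its call (adjusted p = 0.0366) was lost on leaving out any 1 of the 6 libraries and with no filter on low counts, at adjusted p of up to 0.164.

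Receptors most like those of PDGF in structure, and their ligands, held 1 higher and 1 lower gene among 6 tested. Over all genes tested, 9.05% were higher and 10.3% lower. Csf1, macrophage colony stimulating factor, rose from 822 ± 53.0 to 1279 ± 106 CPM (SD, n = 3; log2 fold change 0.64 ± 0.10 (SE), edgeR adjusted p = 0.00137). Kitl, the ligand of the receptor Kit, fell from 295 ± 65.3 to 115 ± 20.6 CPM (-1.36 ± 0.17, adjusted p = 2.90e-04). The receptor genes themselves were low, Kit at 4.97 and 4.22 CPM and Csf1r at 2.36 and 2.26 CPM in controls and after Wt1 siRNA, and neither passed (adjusted p = 0.633 and 0.947).

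**Figure D5:**
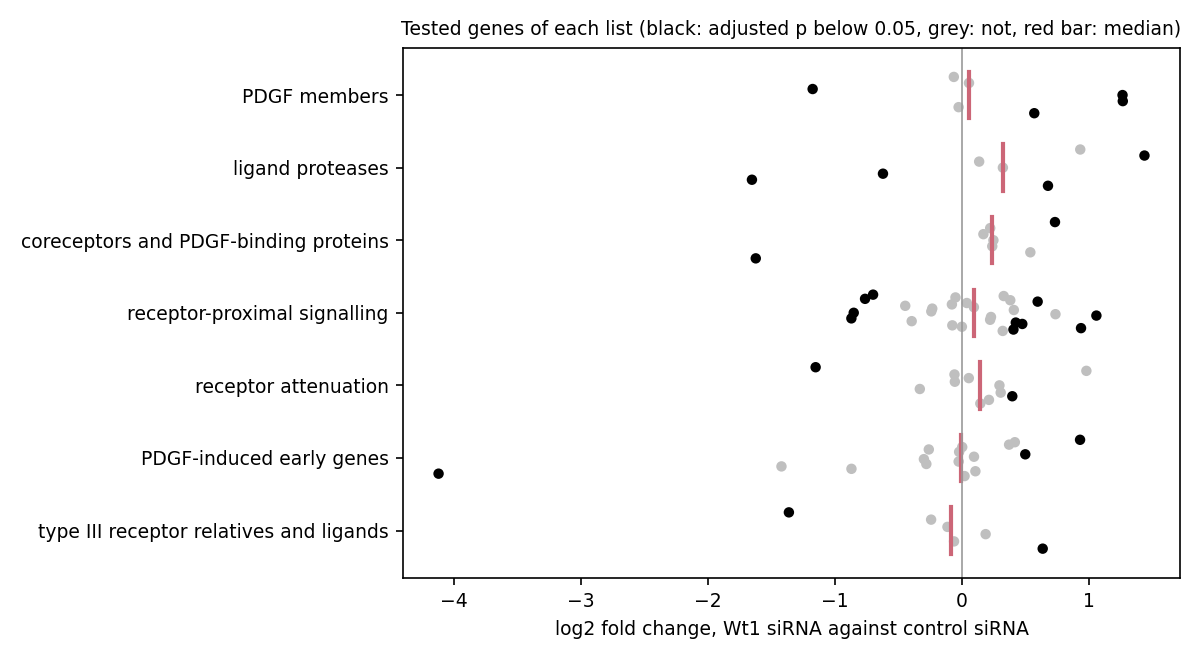
Log2 fold change after Wt1 siRNA (horizontal axis, edgeR) of each tested gene of the 7 PDGF members and of the 6 pathway lists; black points have an adjusted p below 0.05, grey points do not, and red bars are medians. Each list has black points on both sides of 0, and the point at -4.12 is Cxcl1, which had 0, 0 and 2 counts after Wt1 siRNA.

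Kit and Csf1r are also the neighbours that follow Pdgfra and Pdgfrb on their chromosomes. Among the nearest protein-coding genes on each side of the members, 14 in all, 3 had no counts and 11 were tested, of which 1 was higher and 2 lower (27.3%, against 19.3% of all genes in edgeR). Mtus1, a microtubule-associated protein gene 0.1 kb from the end of Pdgfrl, fell by 0.58 ± 0.13 in log2 units (adjusted p = 0.00765), and Casp12, an inflammatory caspase gene 795.3 kb before Pdgfd, by 0.75 ± 0.12 (adjusted p = 0.00109). Glrb, a glycine receptor subunit gene 122.8 kb before Pdgfc, had 0.659 ± 0.61 and 2.87 ± 1.96 CPM (SD, n = 3; adjusted p = 0.0497). The call of Glrb ended with limma-voom, under scaling by totals and on leaving out library 2, 3 or 4, at up to 0.316. Its log2 fold change was 2.09, and 3.20 without control library 1. Prkar1b beside Pdgfa (16.2 and 16.7 CPM) and Ctso beyond Pdgfc (27.9 and 34.5 CPM) did not pass.

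The genes with the most similar profiles were ranked by Pearson correlation of log2 CPM over the 6 libraries, among 10588 genes. These values describe 6 points, and other genes may come close to them. For the 4 called members the points share the difference between 2 groups. Pdgfb, Pdgfrb and Pdgfrl did not pass, so that their values describe mostly the spread among libraries. Among those closest to Pdgfra was Tspan5, a tetraspanin gene (r = 0.998; 130 ± 6.27 and 78.4 ± 10.3 CPM (SD, n = 3)). Closest to Pdgfc were Dclre1a, a DNA crosslink repair nuclease gene (r = 0.998), and Epm2a, the laforin gene (r = 0.998). Closest to Pdgfd were Zdhhc18, a palmitoyltransferase gene (r = 0.999), and Stard5, a sterol transfer protein gene (r = 0.997). For Pdgfa these were Ppp1r14b (r = 0.993) and St6gal1 (r = 0.992), for Pdgfb Thap7 (r = 0.976) and Vsir (r = 0.976), and for Pdgfrl Josd2 (r = 0.994) and Nme4 (r = 0.985). For Pdgfrb they were R3hdm4 (r = 0.995) and Tagln, the smooth muscle protein transgelin (r = 0.993, 1532 ± 281 and 1641 ± 314 CPM (SD, n = 3)). Of the genes named for Pdgfa and Pdgfc, St6gal1 (log2 fold change 0.10, edgeR adjusted p = 0.532) and Epm2a (0.65, edgeR adjusted p = 0.0623) were not called.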

How the data were processed

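The authors deposited raw read counts for 24061 Entrez gene IDs in each of the 6 libraries. Tools listed without roles in the submitters' processing notes are TopHat, DESeq, bcl2fastq and CASAVA 1.8, with the build mm10 (GRCm38). The sources used here give no counting tool, annotation or strand setting. IDs were given symbols from RefSeq GRCm38.p6 (23976) and GENCODE M21 (7 more), and exon lengths came from GENCODE M21. Libraries were grouped by their titles. Pairs within a group differed by more than sampling noise (chi-square per degree of freedom of 18.9 to 70.9). Each library was counted as 1 sample, but this spread may be technical and does not show that the libraries are independent. Counts were tested with edgeR 4.0.16 by its quasi-likelihood F test (R 4.3.3; TMM, filterByExpr, group as the only term), with Benjamini-Hochberg adjustment over all 14190 genes. CPM use TMM factors (0.940 to 1.07), the SE was obtained from the log2 fold change and the F statistic, and log2 CPM for correlations has a prior count of 2. The procedure was tested on simulated data. Alternatives were library size and RLE scaling, no filter, at least 1 CPM in 3 libraries, DESeq2 1.42.0, limma-voom (limma 3.58.1), robust shrinkage, leaving out each library, and other gene lengths. The members, lists and the naming rule (Wt1, all members, up to 3 called genes per list and direction, nearest neighbours, and the 2 most similar genes per member) were chosen with earlier results of these data known. 1 of the genes that the naming rule selects is not reported here.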

Additional observations from a re-analysis of the deposited data

How the results depend on the processing

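Under the 13 alternatives, Pdgfc, Pdgfd and Pdgfra kept their direction and their call in all of them, with log2 fold changes of 1.14 to 1.36, 1.14 to 1.43 and -1.33 to -1.08 when 1 library was left out. Pdgfa kept its direction, with 0.44 to 0.71, and lost its call in 4 of the 6 fits without a library. The 3 members that did not pass turned sign when single libraries were left out: Pdgfb ran from -0.17 to 0.17, Pdgfrb from -0.028 to 0.18 and Pdgfrl from -0.24 to 0.080, and Pdgfrb was -0.028 with library size scaling. The number of genes in the 6 pathway lists that were higher was 13, and 8 to 15 with a library left out. Over all genes, 1284 were higher and 1459 lower, against 855 higher with library size scaling, 578 higher and 785 lower without Wt1 siRNA library 4, and 836 higher without Wt1 siRNA library 5. DESeq2 and limma-voom each called 2 coreceptors and binding proteins higher in place of 1, and 3 and 2 attenuators higher in place of 1. Library size scaling called 0 attenuators higher. Among early genes, 1 was lower (Cxcl1), against 2 with DESeq2 or library size scaling. The number was 0 without a filter, with the stricter filter or in all fits without a library except that without control library 2. The 1 lower gene there was not Cxcl1, whose call was lost in that fit. The lower count of ligand proteases was 1 to 2 and the higher count of early genes 1 to 3 with a library left out. The causes were not tested. Differences in ratios and shares kept their direction in the alternatives run, except that of log2 Pdgfc to Pdgfd, which was 0.01 and ran from -0.29 to 0.24 with a library left out. The difference in log2 Pdgfra to Pdgfrb ran from -1.49 to -1.07, that in log2 Pdgfa to Pdgfb (0.62) was 0.38 without Wt1 siRNA library 6, and that in the Pdgfa share was -4.79 percentage points with the mean transcript length, against -7.66. No paired analysis was run, because the labels record no pairing of libraries between the groups. Whether the libraries were prepared in pairs is not known, and the effect of a pairing on the spread was not tested. Cxcl1 could not be tested with the stricter filter. Totals of 26.1 to 32.1 (in units of 1e6 counts) limit Cxcl1, Glrb and the other genes near the floor, not the PDGF members.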
